A study of Rattus norvegicus with 40 samples.

Results

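Slc17a1 and Slc17a3 are neighbouring genes on rat chromosome 17, and their signals in liver were described here in dioxin-resistant and dioxin-sensitive rats after TCDD. The members were all probe sets whose platform annotation names Slc17a1 or Slc17a3, which gave 2 of the 15866 probe sets that are not array controls, 1 for each gene, and 2 of the 10411 genes that could be named. The pair was chosen by its measured response, since both genes had higher signals after TCDD in the resistant rats and little difference in the sensitive rats at 19 h. The rule names their values at 19 h and at 3 h, so all values of the pair are a description, with no test, and tests are given only for other genes.

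Every animal was a male rat of 10 to 12 weeks given a single gavage of 100 μg/kg TCDD (2,3,7,8-tetrachlorodibenzo-p-dioxin) or of corn oil vehicle, and 1 liver was hybridised to each RAE230A array. The resistant rats were Han/Wistar (H/W) and their descendant Line-A (LnA), whose aryl hydrocarbon receptor (AHR) lacks a stretch of the transactivation domain. The sensitive rats, with a wildtype receptor, were Line-C (LnC) and Long-Evans (L-E). Both lines descend from matings between H/W and L-E, so each line carries genome segments of both strains. The 8 groups of 19 h held TCDD and corn oil animals of the 4 strains/lines, and 2 further groups held H/W and L-E animals 3 h after TCDD, with 4 animals in each of the 10 groups. The samples held no corn oil group at 3 h, and animals were housed by treatment group, so cage and treatment cannot be told apart.

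Slc17a1 encodes NPT1 and Slc17a3 encodes NPT4, membrane carriers of the SLC17 family, which was first described for sodium-dependent phosphate transport and also holds carriers of organic anions. Both proteins are known from the apical membrane of the kidney proximal tubule, where they take part in the secretion of urate and of organic anion drugs, and both transcripts are also found in hepatocytes. The AHR is a ligand-activated transcription factor that pairs with ARNT and binds DNA at AHR response elements (AHREs) with the core GCGTG.

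The windows upstream of the 2 genes are shown because the genes sit side by side and changed together. Each is the 250 bases before the annotated start in RefSeq (build GRCr8), read 5′ to 3′ on the minus strand, with capitals marking ACGTG on either strand, letters picked after the sequences had been seen. The Slc17a1 window is chr17:41681175-41681424 and the Slc17a3 window is chr17:41723110-41723359.
Slc17a1: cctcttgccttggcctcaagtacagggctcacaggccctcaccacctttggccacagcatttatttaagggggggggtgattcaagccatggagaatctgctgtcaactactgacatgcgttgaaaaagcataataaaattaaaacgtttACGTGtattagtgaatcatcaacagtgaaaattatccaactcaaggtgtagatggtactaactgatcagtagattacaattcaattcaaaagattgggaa
Slc17a3: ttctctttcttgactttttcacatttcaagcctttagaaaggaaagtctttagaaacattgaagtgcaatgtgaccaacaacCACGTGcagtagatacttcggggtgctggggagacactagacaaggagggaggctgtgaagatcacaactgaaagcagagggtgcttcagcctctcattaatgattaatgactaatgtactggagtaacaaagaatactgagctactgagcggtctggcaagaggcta

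Neither window held the AHRE core GCGTG on either strand, which 25.9% of 33469 rat windows of this length held. The Slc17a3 window held the E-box CACGTG at position -168 from the gene start, a word found in 5.59% of windows, and the E-box contains ACGTG on both strands. The Slc17a1 window held ACGTG at position -100 from its gene start, and 16.6% of windows held that word. The antioxidant response element core TGACNNNGC (10.1% of windows) and the TATA word TATAAA (12.9% of windows) matched in neither. These are matches of letters in the reference sequence, and the sequence of the animals studied was not analysed here.

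Across the 40 arrays the median log2 signal lay between 3.52 and 3.76, arrays correlated on average at 0.992 to 0.996 with their group, and no 2 arrays were identical. Of 10 hepatocyte markers 9 were measured, with group means of 10.06 or more on the log2 scale. Of 13 kidney markers 11 were measured, and 10 of these stayed below the array median on every array. The exception was Lrp2, the proximal tubule receptor megalin, which reached 3.89 at most. The summed kidney marker signal ranged from 67.1 to 82.4 linear units over all arrays. In whole liver, more cells of a type and more RNA per cell cannot be told apart. Of 6 measured genes of the AHR battery, the set of classic AHR targets, 5 passed the test in H/W, with Cyp1a1 at a log2 difference of 10.47 (limma adjusted p = 0.0142), and 6 passed in each of LnA, L-E and LnC. Here and below a gene passed the test when its limma p-value, adjusted over all 10411 genes, was under 0.01.

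Slc17a1 was higher 19 h after TCDD in both resistant strains/lines. Corn oil animals of H/W read 8.19, 8.28, 8.32 and 8.09 on the log2 signal scale, with a mean of 8.22 ± 0.11 (SD, n = 4, as for every group mean here). TCDD animals of H/W read 9.91, 9.67, 9.72 and 9.53, with a mean of 9.71 ± 0.16. The lowest TCDD animal lay 1.20 log2 units above the highest corn oil animal, and the difference between the means was 1.49 (SE 0.090), or 2.80-fold. Corn oil animals of LnA read 7.92, 7.47, 7.82 and 7.32 (mean 7.63 ± 0.28). LnA animals after TCDD read 9.55, 10.01, 9.91 and 9.38 (mean 9.71 ± 0.30). The LnA groups were again apart, by 1.46, and the difference was 2.08 (SE 0.18), or 4.23-fold.

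In the sensitive strains/lines the Slc17a1 groups overlapped. Corn oil animals of L-E read 7.81, 7.64, 7.69 and 8.08 (mean 7.81 ± 0.20). After 19 h of TCDD the L-E animals read 7.88, 8.15, 7.83 and 8.04 (mean 7.97 ± 0.15). The L-E difference was 0.17 (SE 0.11), or 1.12-fold, and every TCDD animal but 1 lay within the corn oil range. Corn oil animals of LnC read 7.51, 7.81, 8.06 and 7.63 (mean 7.75 ± 0.24). LnC animals after TCDD read 7.89, 7.46, 8.06 and 7.75 (mean 7.79 ± 0.25). Both LnC groups covered nearly the same range, with a difference of 0.036 (SE 0.16), or 1.03-fold.

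Slc17a3 had the same order of responses with a wider spread between animals. H/W livers after corn oil read 9.13, 9.32, 9.52 and 9.39 for this gene (mean 9.34 ± 0.16). H/W livers 19 h after TCDD read 10.97, 10.74, 10.70 and 10.51 (mean 10.73 ± 0.19). The gap between the groups was 0.99 log2 units, and the difference was 1.39 (SE 0.11), or 2.62-fold. LnA livers after corn oil read 8.26, 8.48, 8.20 and 7.01 (mean 7.99 ± 0.66). LnA livers after TCDD read 9.92, 10.59, 10.51 and 9.74 (mean 10.19 ± 0.42). The LnA groups were 1.27 apart, and the difference of 2.20 (SE 0.35), or 4.60-fold, included 1 low corn oil animal. Without that animal, LnA corn oil replicate 4, the LnA difference was 1.88.

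L-E livers after corn oil read 8.84, 8.68, 8.91 and 9.28 for Slc17a3 (mean 8.93 ± 0.25). L-E livers 19 h after TCDD read 9.45, 9.32, 9.06 and 9.32 (mean 9.29 ± 0.17). The highest corn oil animal lay above the lowest TCDD animal, and the difference was 0.36 (SE 0.14), or 1.28-fold, the largest of the 4 differences measured for the pair in the sensitive strains/lines. LnC livers after corn oil read 8.80, 9.55, 9.01 and 8.85 (mean 9.05 ± 0.34). LnC livers after TCDD read 8.65, 8.85, 9.48 and 9.28 (mean 9.07 ± 0.38). All LnC animals after TCDD but 1 lay within the corn oil range, with a difference of 0.012 (SE 0.23), or 1.01-fold.

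**Figure D1:**
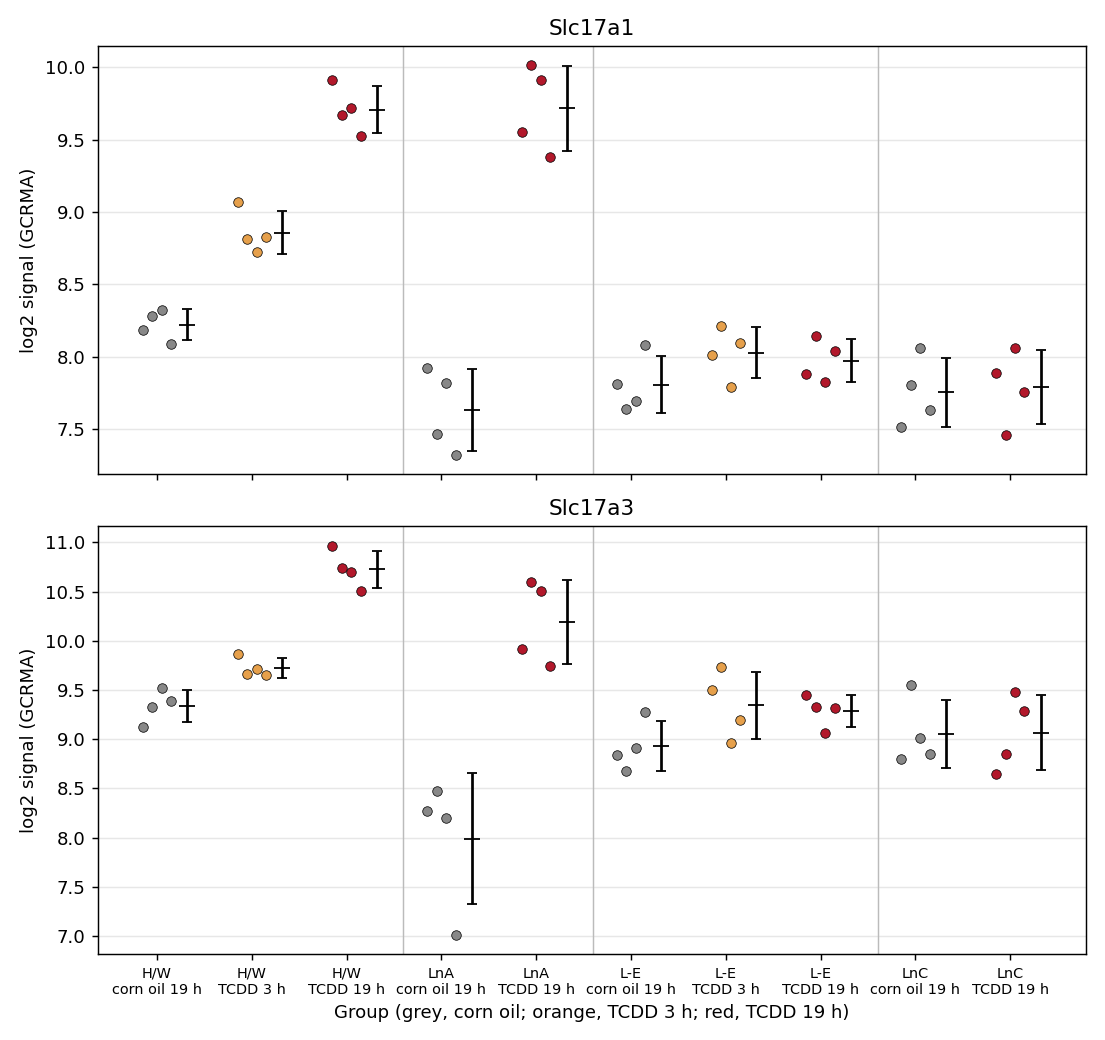
Log2 GCRMA signal (y axis) of Slc17a1 (top) and Slc17a3 (bottom) in the 10 groups (x axis), with 1 point per array and the mean ± SD of 4 arrays beside the points. The 19 h TCDD arrays of H/W and LnA lie above the corn oil arrays of the same strain or line for both genes, and the groups of L-E and LnC overlap.

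Both genes, 2 of 2, had every TCDD array above every corn oil array in H/W, as did 3.28% of all genes, and in LnA, as did 4.82% of all genes. In L-E 0 of 2 did, beside 7.31% of all genes, and in LnC 0 of 2, beside 5.35%. Among 10411 genes ordered by the size of the rise, Slc17a1 was number 39 in H/W and number 18 in LnA, and Slc17a3 was number 47 in H/W and number 16 in LnA. The choice of the pair used these values, so the places describe the choice.

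The mean response of the resistant collective, H/W with LnA, exceeded that of the sensitive collective, L-E with LnC, by 1.68 log2 units (SE 0.15) for Slc17a1. The excess for Slc17a3 was 1.61 (SE 0.25). Within the parental strains, the H/W response exceeded the L-E response by 1.32 (SE 0.15) for Slc17a1 and by 1.03 (SE 0.19) for Slc17a3. Between the lines, the LnA response exceeded the LnC response by 2.05 (SE 0.26) for Slc17a1 and by 2.19 (SE 0.45) for Slc17a3. The excess was larger between the lines than between the strains for both genes.

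**Figure D2:**
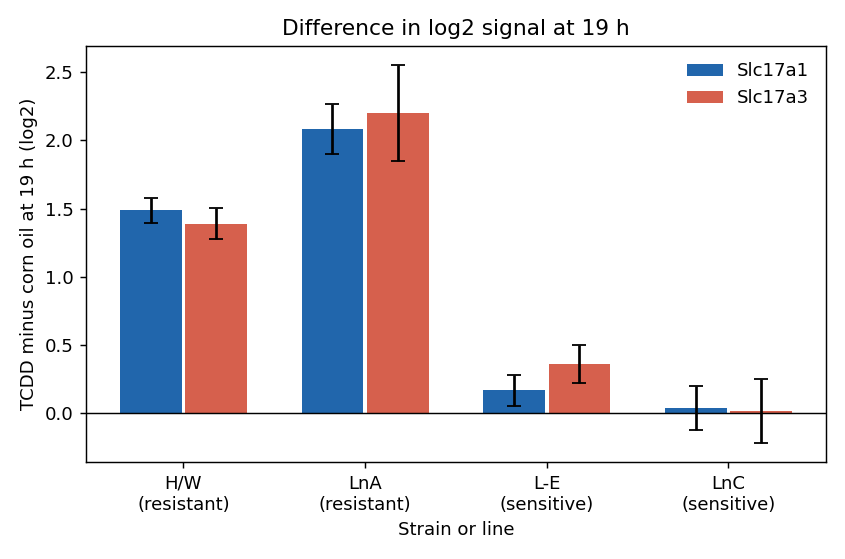
Difference in mean log2 signal between TCDD and corn oil at 19 h (y axis) for Slc17a1 and Slc17a3 in each strain or line (x axis), with bars for the difference and error bars for the limma SE (4 arrays per group). The bars of H/W and LnA lie between 1.39 and 2.20 and those of L-E and LnC between 0.012 and 0.36.

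Arrays of H/W and L-E at 19 h were scanned on several days that each held both treatments, which gave differences within a day. For Slc17a1 in H/W these were 1.73 on day 1 (1 array of each treatment), 1.39 on day 2 (2 of each) and 1.44 on day 3 (1 of each). Slc17a3 in H/W differed by 1.84, 1.30 and 1.12 on the same days. Every H/W day had the TCDD arrays higher for both genes. That direction was fixed in advance, since every H/W TCDD array lay above every H/W corn oil array. L-E differed by 0.066 on day 1 (1 of each) and 0.20 on day 2 (3 of each) for Slc17a1, and by 0.61 and 0.27 for Slc17a3. The arrays of both lines shared 1 scan day, so scan day did not differ between those groups.

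The strains/lines also differed in the level of the pair after corn oil alone, a description of groups not set apart by treatment. All arrays of LnA and LnC were scanned on day 4, and the 19 h arrays of H/W and L-E on days 1 to 3. Differences between a line and a strain thus cannot be told apart from scan day. Slc17a1 was 0.41 (SE 0.15) higher in H/W than in L-E on the log2 scale, with the groups apart by 0.010 only. LnA lay 0.59 below its resistant parent H/W for Slc17a1 (difference -0.59, SE 0.15), with no overlap, and LnA and LnC overlapped (difference -0.12, SE 0.15). By group mean, the lowest corn oil level of Slc17a1 was therefore in a resistant line and the highest in a resistant strain. Slc17a3 in LnA was below H/W (difference -1.35, SE 0.27) and below LnC (difference -1.06, SE 0.27), with no overlap in either case. Without LnA corn oil replicate 4 these became -1.02 and -0.74. Slc17a3 in H/W and L-E overlapped (difference 0.41, SE 0.27), and LnC and L-E overlapped for both genes (differences -0.053 and 0.12). The share of all genes without overlap was not counted for any pair of corn oil groups. At 3 h every H/W array lay above every L-E array in 23.7% of all genes. Lack of overlap between strains/lines is therefore given as a description only.

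After TCDD the resistant groups read like levels of Slc17a1, though their corn oil levels differed. LnA and H/W were also set apart by scan day here, so line and day cannot be told apart. The 19 h TCDD mean of LnA differed from that of H/W by 0.0079 log2 units for Slc17a1, with overlapping arrays. For Slc17a3 the LnA mean stayed 0.54 lower (difference -0.54), and the ranges overlapped. The larger LnA response of both genes thus went with a lower LnA corn oil level.

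In the order of the 10 group means, Slc17a1 was highest in LnA and H/W 19 h after TCDD, which overlapped, then in H/W 3 h after TCDD and then in H/W after corn oil. Neighbours from H/W 19 h after TCDD down to H/W after corn oil did not overlap, and every pair of neighbours from there on did. Slc17a3 was highest in H/W and then LnA 19 h after TCDD, then in H/W and L-E 3 h after TCDD. All its neighbours in the order overlapped except L-E after corn oil and LnA after corn oil, the lowest group. The lines, the strains at 19 h and the 3 h groups had separate scan days, which this order does not take into account.

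At 3 h, H/W animals read 9.07, 8.81, 8.72 and 8.83 for Slc17a1 (mean 8.86 ± 0.15). L-E animals at 3 h read 8.01, 8.21, 7.79 and 8.10 (mean 8.03 ± 0.18). Each H/W animal lay above each L-E animal, by at least 0.51, and the difference was 0.83 log2 units (SE 0.11), or 1.78-fold. Without 1 of the 8 arrays the difference was 0.75 to 0.89. In 23.7% of all genes every H/W array lay above every L-E array at 3 h, so lack of overlap was common in this comparison, and 2.18% of all genes passed the test in it.

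Slc17a3 at 3 h read 9.87, 9.67, 9.72 and 9.65 in H/W (mean 9.73 ± 0.10). L-E at 3 h read 9.50, 9.74, 8.96 and 9.20 (mean 9.35 ± 0.34). Only 1 of the 4 H/W animals lay above every L-E animal, and the difference was 0.38 (SE 0.16), or 1.30-fold. The strain difference at 3 h exceeded the one after corn oil by 0.42 log2 units for Slc17a1, whereas for Slc17a3 the 2 differences were 0.38 and 0.41. The change of the strain difference with time was not tested.

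Markers of other liver cells were also compared between the same 3 h groups. Of 20 listed markers of macrophages, stellate, endothelial, biliary and blood cells, 15 were measured. At 3 h 0 of them passed the test, which 2.18% of all genes did. Their differences, H/W minus L-E, ran from -1.25 to 0.51, with a median of 0.077 beside 0.043 over all genes. Lowest in H/W were the macrophage markers Cd68 (difference -1.25, limma adjusted p = 0.0345) and Clec4f (difference -1.004, limma adjusted p = 0.053) and the collagen gene Col3a1 (difference -0.99, limma adjusted p = 0.053), and highest was the erythroid gene Alas2 (difference 0.51, limma adjusted p = 0.0299). The summed signal of the 15 was 4684 to 6410 linear units in H/W and 5315 to 7573 in L-E at 3 h. The blood cell gene Hbb weighs most in these sums and in those at 19 h. Its mean log2 signal at 19 h was 12.22, beside 9.90 for Clec4f, the next highest. The sums therefore say little of the other cell types. At 19 h 0 of the 15 passed in any strain/line, where 0.423% to 2.06% of all genes did. The sums of TCDD and corn oil animals were 5684 to 7294 and 5949 to 9738 in H/W. In LnA they were 6967 to 9997 and 4971 to 8446, and the sums overlapped in both. In L-E they were 6176 to 11189 and 6720 to 10915, and in LnC 5218 to 7440 and 3995 to 7240. The part of these cells in the values of the pair was not tested.

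Set against the 19 h corn oil animals, the H/W animals 3 h after TCDD were 0.64 log2 units higher for Slc17a1 and 0.39 higher for Slc17a3, with no overlap for 2 of 2 genes (5.15% of all genes did the same). L-E animals were 0.22 and 0.42 higher, with overlap for both (0 of 2 genes apart, 8.81% of all genes). From 3 h to 19 h after TCDD, the H/W mean went from 8.86 to 9.71 for Slc17a1 and from 9.73 to 10.73 for Slc17a3, with no overlap for 2 of 2 genes (9.74% of all genes). L-E differed by -0.054 and -0.059 over the same interval. Corn oil, 3 h and 19 h arrays of H/W thus stood in rising order without overlap for both genes, as they did for 26 of 10411 genes (0.25%). The 3 h arrays had a scan day to themselves, so time, scan day and, for the corn oil group, treatment cannot be told apart here.

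The pair moved together from animal to animal. Over the 32 arrays of 19 h the log2 signals of Slc17a1 and Slc17a3 had a Pearson r of 0.87. That value includes the shared response by which the pair was chosen. Deviations from the group means over all 40 arrays, which leave out the mean response but keep differences between animals in their response, had an r of 0.66. All 10 groups had a positive r over their 4 arrays, from 0.35 in H/W corn oil to 0.996 in LnA 19 h after TCDD. The animal with the lowest Slc17a3 of all, LnA corn oil replicate 4, also had the lowest Slc17a1. Both genes of an animal were read from the same RNA on the same array.

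**Figure D3:**
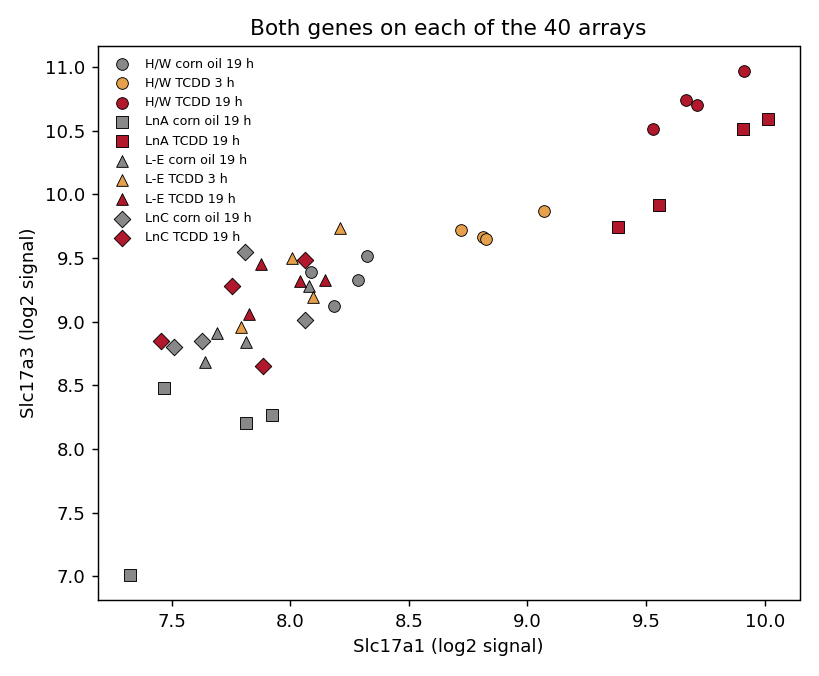
Log2 signal of Slc17a1 (x axis) against Slc17a3 (y axis) on each of 40 arrays, with the marker shape for the strain or line and the colour for treatment and time. The 8 arrays of H/W and LnA 19 h after TCDD lie apart at the upper right, the H/W arrays of 3 h lie between them and the rest, and LnA corn oil replicate 4 lies lowest on both axes.

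No other gene had a pattern over the 32 arrays as close to either gene as its partner. The pair was chosen for a response shared on these arrays, so this place describes the choice in part. After Slc17a3, the genes with the highest r to Slc17a1 were Tm2d3 (0.74), Pex14 (0.73), Mlx (0.72) and Otub2 (0.70). Pex14 encodes a docking protein of peroxisomal import and Mlx a partner of the glucose-sensing factor ChREBP. After Slc17a1, the genes closest to Slc17a3 were Tmem205 (0.77), Gsr (0.77), Prep (0.74) and Timm8b (0.73), of which Gsr encodes glutathione reductase. The TCDD minus corn oil differences of these 8 genes, chosen on the same arrays, ran from 0.15 to 0.76 in H/W, 0.39 to 1.71 in LnA, 0.015 to 0.71 in L-E and -0.19 to 0.75 in LnC. The 1.71 in LnA was that of Otub2 (SE 0.61), whose mean log2 signal of 2.34 lay under the array medians. For Pex14 and Mlx the deviations from group means correlated with those of Slc17a1 at -0.20 and -0.12, so their likeness lay between the groups.

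The nearest measured genes on the chromosome differed by less in H/W and LnA than the pair, which was chosen by its response. In the GRCr8 annotation 1 entry lies between Slc17a1 and Slc17a3, and the flanking genes Slc17a4 and Slc17a2 were not among the genes measured. The nearest 10 measured genes on either side gave 20, of which 9 had a mean log2 signal above the highest array median. Counted in annotated entries from the pair, they reached from -39 (Hdgfl1, Slc17a1 side) to 124 (H2bc8, Slc17a3 side), so not all are close. Many of the 20 are histone genes of the cluster that adjoins the pair. None passed the test in H/W, where 0.423% of all genes did, with differences from -0.38 to 0.45. Nor did any pass in LnA, where 1.09% of all genes did, with a highest difference of 0.91 for Aldh5a1, succinate semialdehyde dehydrogenase (limma adjusted p = 0.0312). None passed in L-E (2.06% of all genes). In LnC 1 passed (1.13% of all genes), Acot13, an acyl-CoA thioesterase, which rose by 0.52 (limma adjusted p = 0.00551), a call lost in 7 of 8 fits that left out 1 array (limma adjusted p up to 0.027). Its differences were 0.43 in H/W, 0.76 in LnA and 0.24 in L-E (limma adjusted p = 0.592, 0.0298 and 0.603). For the resistant minus sensitive difference in response none of the 20 passed, beside 0.0961% of all genes, and the values ran from -0.41 to 0.22. At 3 h, Hfe, a regulator of hepcidin and iron uptake that lies on the Slc17a3 side, was lower in H/W than in L-E by 0.81 (difference -0.81, limma adjusted p = 0.000509), opposite in sign to Slc17a1, and passed in all 8 fits that left out 1 array.

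**Figure D4:**
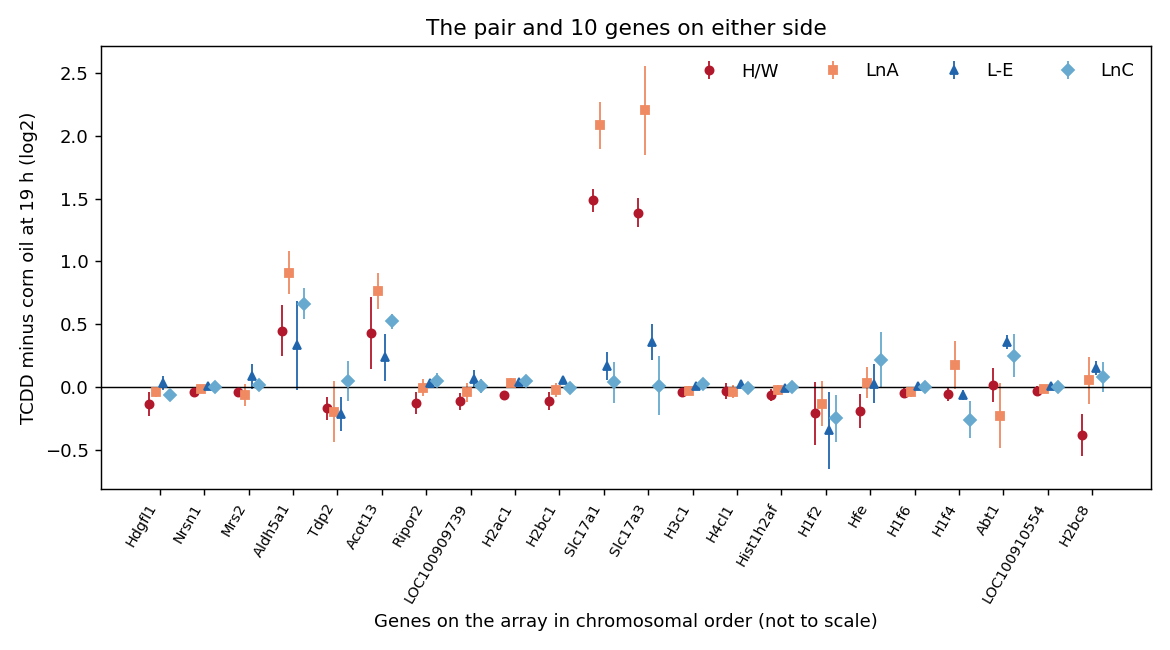
Difference between TCDD and corn oil at 19 h in log2 signal (y axis, ± limma SE, 4 arrays per group) for Slc17a1, Slc17a3 and the nearest 10 measured genes on either side, in chromosomal order and not to scale (x axis), in 4 strains/lines. The H/W and LnA points of the pair, 1.39 to 2.20, stand above those of all 20 neighbours, which reach 0.91 in LnA.

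Other measured members of the family did not pass the test. Of 9 listed SLC17 genes, 3 besides the pair were measured. Slc17a5, the lysosomal sialic acid carrier sialin, had a mean log2 signal of 6.76 and passed nowhere, with differences of -0.13 in H/W, -0.68 in LnA, -0.36 in L-E and -0.86 in LnC (limma adjusted p from 0.108 to 0.642). The 4 values lay below 0, where those of the pair lay above it. Slc17a6 and Slc17a7, the vesicular glutamate carriers of neurons, had means of 2.65 and 2.91, under the array medians, and differences of at most 0.069.

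Among other carriers of urate and organic anions, 11 of 19 listed genes were measured. Of these, 1 passed in H/W (0.423% of all genes), 2 in LnA (1.09%), 2 in L-E (2.06%) and 1 in LnC (1.13%). All of these calls were of Slco1a1 or Slco1a4, and all were downward. Slco1a1, a sinusoidal organic anion uptake carrier, fell by 0.91 in H/W, 1.17 in LnA, 1.06 in L-E and 0.98 in LnC, and passed in all 4 (limma adjusted p from 0.000823 to 0.00337). Slco1a4, a related carrier, passed in LnA (difference -1.42) and L-E (difference -2.49), and its differences were -2.71 in H/W (limma adjusted p = 0.0125) and -2.44 in LnC (limma adjusted p = 0.0562). The median of the 11 was -0.050 in H/W and -0.078 in LnA, beside -0.040 and -0.015 over all genes. The resistant minus sensitive difference in response of Slco1a1 was -0.015 (SE 0.095) and did not pass (limma adjusted p = 0.942).

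Of 28 listed genes of purine and urate metabolism, 21 were measured, and 0 passed in H/W (0.423% of all genes), 1 in LnA (1.09%), 2 in L-E (2.06%) and 2 in LnC (1.13%). Adk, adenosine kinase, fell by 0.49 in LnA, 0.85 in L-E and 0.36 in LnC, and its H/W difference was -0.44 (limma adjusted p = 0.055). Prpsap1, a regulatory partner of phosphoribosyl pyrophosphate synthetase, rose by 0.81 in L-E and also passed in LnC (limma adjusted p = 0.00104), and its differences were 0.81 in H/W and 0.53 in LnA (limma adjusted p = 0.0155 and 0.105). Xdh and Uox, which make and break down urate, passed in none. The list median was 0.0095 in H/W and 0.045 in LnA. Gart, an enzyme of purine synthesis, was lower in H/W than in L-E at 3 h (limma adjusted p = 0.0028), though its signal is low, with a mean of 2.73 at 19 h, under the array medians, so the size of the difference is not given.

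Of 11 listed phosphate carriers, 8 were measured. In H/W 0 passed (0.423% of all genes), 2 in LnA (1.09%), 2 in L-E (2.06%) and 0 in LnC (1.13%). Slc25a3, the mitochondrial phosphate carrier, rose by 0.35 in LnA (limma adjusted p = 0.00801), and its differences were 0.25 in H/W, 0.44 in L-E and 0.35 in LnC (limma adjusted p = 0.183, 0.0215 and 0.0194). Slc37a4, the glucose-6-phosphate carrier of the endoplasmic reticulum, fell by 0.96 in LnA and 1.38 in L-E, and its differences were -1.04 in H/W and -0.80 in LnC (limma adjusted p = 0.0714 and 0.0622). Slc20a1, a sodium-dependent phosphate carrier of the plasma membrane, rose by 1.44 in L-E, and its differences were 0.87 in H/W, 0.58 in LnA and 0.88 in LnC (limma adjusted p = 0.414, 0.385 and 0.186). The list median was -0.12 in H/W and -0.16 in LnA. At 3 h Slc25a3 was lower in H/W than in L-E (difference -0.39, limma adjusted p = 0.00367), also opposite in sign to Slc17a1. With 1 array left out, Gart passed in 5 of 8 fits and Slc25a3 in 2 of 8 (limma adjusted p up to 0.0124 and 0.0149).

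Of 19 listed hepatic transcription factors, 17 were measured. In H/W 0 passed upward and 0 downward (0.423% of all genes passed), and in LnA 1 and 0 (1.09%). L-E had 1 upward and 2 downward (2.06%), and LnC had 2 and 0 (1.13%). Nfe2l2, the antioxidant response factor NRF2, rose by 1.38 in LnA, 2.17 in L-E and 1.71 in LnC, and its H/W difference was 1.46 (limma adjusted p = 0.0163). Cebpa and Nr1h4, which encode C/EBPα and the bile acid receptor FXR, fell by 0.87 and 0.62 in L-E. The Cebpa differences were 0.10 in H/W, -0.58 in LnA and -0.73 in LnC, and those of Nr1h4 were -0.93, -0.71 and -0.60, none of which passed (limma adjusted p from 0.117 to 0.827). Ahr itself, at a low signal, passed in LnC with a rise of 0.91 (limma adjusted p = 0.000494), or 0.46 as the mean of its probe sets, and its differences were 1.48 in L-E, 0.63 in LnA and 0.48 in H/W (limma adjusted p = 0.0902, 0.276 and 0.561). The list median in H/W was 0.45, beside -0.040 over all genes, with Onecut1 highest at 2.07 (SE 1.18, limma adjusted p = 0.548), and in LnA it was -0.073.

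Over these 5 lists together, 60 genes besides the pair were measured. In H/W 0 passed upward and 1 downward (0.423% of all genes passed), in LnA 2 and 4 (1.09%), in L-E 3 and 6 (2.06%), and in LnC 3 and 2 (1.13%). For the difference in response between the collectives, 0 of the 60 passed in either direction, beside 0.0961% of all genes. The highest value was 0.96 (SE 1.53, limma adjusted p = 0.753), for Onecut1. Slc17a1 at 1.68 and Slc17a3 at 1.61 were chosen by this difference, so their larger values describe the choice. In LnA the deviations of same-numbered TCDD and corn oil animals correlated weakly (r from 0.119 to 0.164), and pairing was not tested. There a fit with the replicate number as a block left 0 of the 6 calls. With that block 11 genes passed in place of 113, and 2 of 6 genes of the AHR battery. Leaving out each array in turn, Slco1a1 in H/W, L-E and LnC, Slco1a4 and Cebpa in L-E, and Prpsap1 and Ahr in LnC passed in all 8 fits, and every other call named from these lists at 19 h was lost in at least 1 fit (limma adjusted p of at most 0.0395). The LnA fit with the block left the differences of the pair in LnA as they were and changed their SE to 0.16 for Slc17a1 and 0.19 for Slc17a3.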

How the data were processed

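Liver RNA of 40 rats was measured on Affymetrix RAE230A arrays, 4 per group in 10 groups taken from the sample labels. The authors deposited log2 expression values per probe set, normalised with GCRMA (the submitters' processing notes name R 2.3.1, affy 1.10.0 and GCRMA 2.4.1), and these were used as deposited. GCRMA estimates background from probe sequence, and folds from low signals are imprecise. Scan days came from the scanner records. Of 15923 probe sets, 57 controls were left out, 12783 named 1 gene, 312 several and 2771 none. Each of 10411 genes was represented by its probe set of highest mean at 19 h. TCDD was compared with corn oil within each strain/line, the responses of the collectives over 32 arrays, and H/W with L-E at 3 h, each with limma 3.58.1 in R 4.3.3 and Benjamini-Hochberg adjustment over all genes, after tests on simulated data. No p is given for the pair.

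The members and gene lists were chosen with earlier results of these data known. Named are the pair, list genes passing in any strain/line or in the difference between collectives, other SLC17 genes, 10 measured neighbours on either side and the 5 genes most correlated with each member. Genes named for a 3 h difference, Cyp1a1, Lrp2, Onecut1, Xdh and Uox were picked after their values were seen. Replicate numbers were checked as pairs through deviations from group means over 2245 variable genes (variance over 0.1). Correlations of same-numbered animals exceeded 0.1 for all 4 pairs in LnA only (0.119 to 0.164), and for 3 of 4 pairs in L-E (0.066 to 0.287). The number of arrays limits precision. Alternatives were other probe set summaries, normalisations and filters, a variance trend, blocks, 1 joint fit and leaving out each array.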

Additional observations from a re-analysis of the deposited data

How the results depend on the processing

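The pair kept the direction of its responses in H/W and LnA, and of the excess of the resistant collective, under every alternative run. Most of this was fixed in advance. Each gene has 1 probe set and the groups are balanced. Of the processing alternatives in H/W, only repeated quantile normalisation and centring of arrays moved the differences. The TCDD and corn oil arrays of H/W and LnA did not overlap, so leaving out 1 array could not change the direction there. Other processing gave 1.46 to 1.55 for Slc17a1 and 1.34 to 1.45 for Slc17a3 in H/W, and 2.06 to 2.09 and 2.17 to 2.22 in LnA. Leaving out 1 array gave 1.42 to 1.55 and 1.31 to 1.46 in H/W, 1.98 to 2.19 and 1.88 to 2.37 in LnA, 0.11 to 0.26 and 0.28 to 0.48 in L-E, and -0.054 to 0.15 and -0.13 to 0.18 in LnC, where the sign changed. The excess was then 1.63 to 1.74 for Slc17a1 and 1.45 to 1.69 for Slc17a3. At 3 h the Slc17a1 difference was 0.75 to 0.89 and the Slc17a3 difference 0.25 to 0.51 without 1 array. With the replicate block the 3 h Slc17a1 difference stayed at 0.83, as balanced groups require, with same-numbered animals correlated at -0.026 to 0.17.

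The number of genes of the 5 lists that passed was less steady. In H/W it was 1, and became 0 with arrays centred on their medians, 4 with low genes left out, 3 with the variance trend, 13 with 1 fit over the 8 groups and 1 to 2 without 1 array. In LnA it was 6, and became 2 with repeated quantile normalisation, 1 with centring and 0 to 3 without 1 array. In L-E it was 9, and became 14 with 1 fit and 3 to 8 without 1 array. In LnC it was 5, and became 14 with 1 fit and 3 to 5 without 1 array. With the replicate block it was 0 in H/W, 0 in LnA, 3 in L-E and 0 in LnC. Correlations of same-numbered animals were over 0.1 for all 4 pairs in LnA and 3 of 4 in L-E. They reached at most 0.164 in LnA and 0.287 in L-E, so pairing was not settled in either. The cause of these changes was not tested, except that the block and the left-out arrays leave fewer degrees of freedom and 1 fit more. Of the 48 calls of other named genes none changed direction, and 210 of their values under an alternative no longer passed while 574 did. Signals under the array median limit what can be said of 11 of the 20 neighbours and of Slc17a6, Slc17a7, Gart, Ahr and Otub2.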
